A study of Mus musculus with 10 samples.

Results

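The genes described here are the subunits of the proteasome and the enzymes and modifiers of the ubiquitin pathway that were printed on a 2-colour array of mouse genes. They were taken from the gene names in the array files: names starting with proteasome or containing ubiquitin, without those that also hold X chromosome, Y chromosome, hypothetical or similar. This gave 93 distinct names on 154 spots, of 15190 names on the array. A name stands for a gene below, and 92 of the 93 could be given a symbol from RefSeq. The words X chromosome removed 1 further name.

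Ubiquitin is a small protein that is joined to other proteins in a chain of steps. An activating enzyme (E1) loads ubiquitin, a conjugating enzyme (E2) carries it, and a ligase (E3) helps to place it on the target. Deubiquitinating enzymes take it off again. Proteins that carry a ubiquitin chain are unfolded by the ATPases of the 19S cap of the proteasome and cut in its 20S core, a barrel of alpha rings outside and beta rings inside. In neurons this system turns over synaptic proteins, and its failure is known from neurodegenerative disease.

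The tissue was the paraventricular nucleus (PVN) of the mouse hypothalamus, whose neurons start the hormonal stress response. Animals from litters separated from the mother for 24 h were compared with animals from litters that were not separated, and no other treatment, allele or strain was given in the sources used here, nor the age or sex of the animals. Punches of 1 mm from 100 µm sections of 6 animals per condition were joined by 2 into 3 samples, their RNA was amplified, and equal amounts were joined into 1 pool of 40 µg per condition. The pools were hybridised against each other on 10 arrays. The separated pool carried the dye Cy5 on 5 of them, called Cy5 arrays here, and Cy3 on the other 5, called Cy3 arrays. The arrays are technical repeats of 1 comparison between 1 pool and 1 pool. Their spread measures array and dye error, not the spread between animals, and no p-value was computed. The 2 dye orientations were also scanned on different days, and the effects of dye and scan day cannot be told apart.

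Values are log2 ratios of the separated over the non-separated pool, averaged over both orientations, with the SD over the 10 arrays. The directions follow the dyes given in the labels. The authors' deposited table of ratios ran the other way on all 10 arrays, with correlations of -0.96 to -0.92, and were the dyes swapped in the labels, every direction here would reverse. A call, higher or lower, required that the brightest spot of a gene differed at least 1.5-fold and had the same sign on all 10 arrays. In bulk tissue, fewer cells of a type and less RNA per cell cannot be told apart.

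The median intensity of an array's spots was 269 to 489 in the Cy5 channel and 404 to 929 in the Cy3 channel. A gene was counted as above the empty spots when its brightest spot exceeded the 95th percentile of the 1170 empty spots in either channel on at least 8 of 10 arrays. That bar is high, because 4.10 to 6.24% of the empty spots were brighter than 1000 in Cy5. It was passed by 22 of the 93 genes, and 85 of them passed the 90th percentile. Single arrays agreed weakly with each other over all spots. The correlation was 0.18 to 0.24 between Cy5 arrays, 0.05 to 0.13 between Cy3 arrays, and -0.11 to 0.04 across the orientations. Of the markers of PVN neurons, vasopressin (-0.53 ± 0.49), oxytocin (-0.31 ± 0.92) and thyrotropin releasing hormone (-0.13 ± 0.60) were not above the empty spots, and their summed intensity was 787 to 3856 in the separated and 1153 to 5499 in the non-separated pool. Corticotropin releasing hormone and Sim1 were not found by their names.

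None of the 93 genes was called higher and none lower. Over all names, 0.0658% were called higher and 0.191% lower, so a count of 0 among 93 genes is near the background. A single member had the same sign on all 10 arrays at any size, and it was lower; over all names 0.461% were higher and 1.05% lower on every array. Of the 22 genes above the empty spots none had one sign on every array, where 1.62% of such names were higher and 4.06% lower. The values ranged from -0.59 ± 1.14 for Ube2v1, a conjugating enzyme variant, to 0.42 ± 0.52 for Sae1, a subunit of an activating enzyme for ubiquitin-like proteins. Ube2v1 was also the only member past 1.5-fold in size, with 7 arrays below 0 and orientation means of 0.02 and -1.19. The difference exceeded 1 SD of the arrays in 5 members, Psmc2, Psmc3, Psma7, Psmc3ip and Usp4, which were all lower; over all names 1.67% were higher and 2.93% lower by more than 1 SD.

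**Figure D1:**
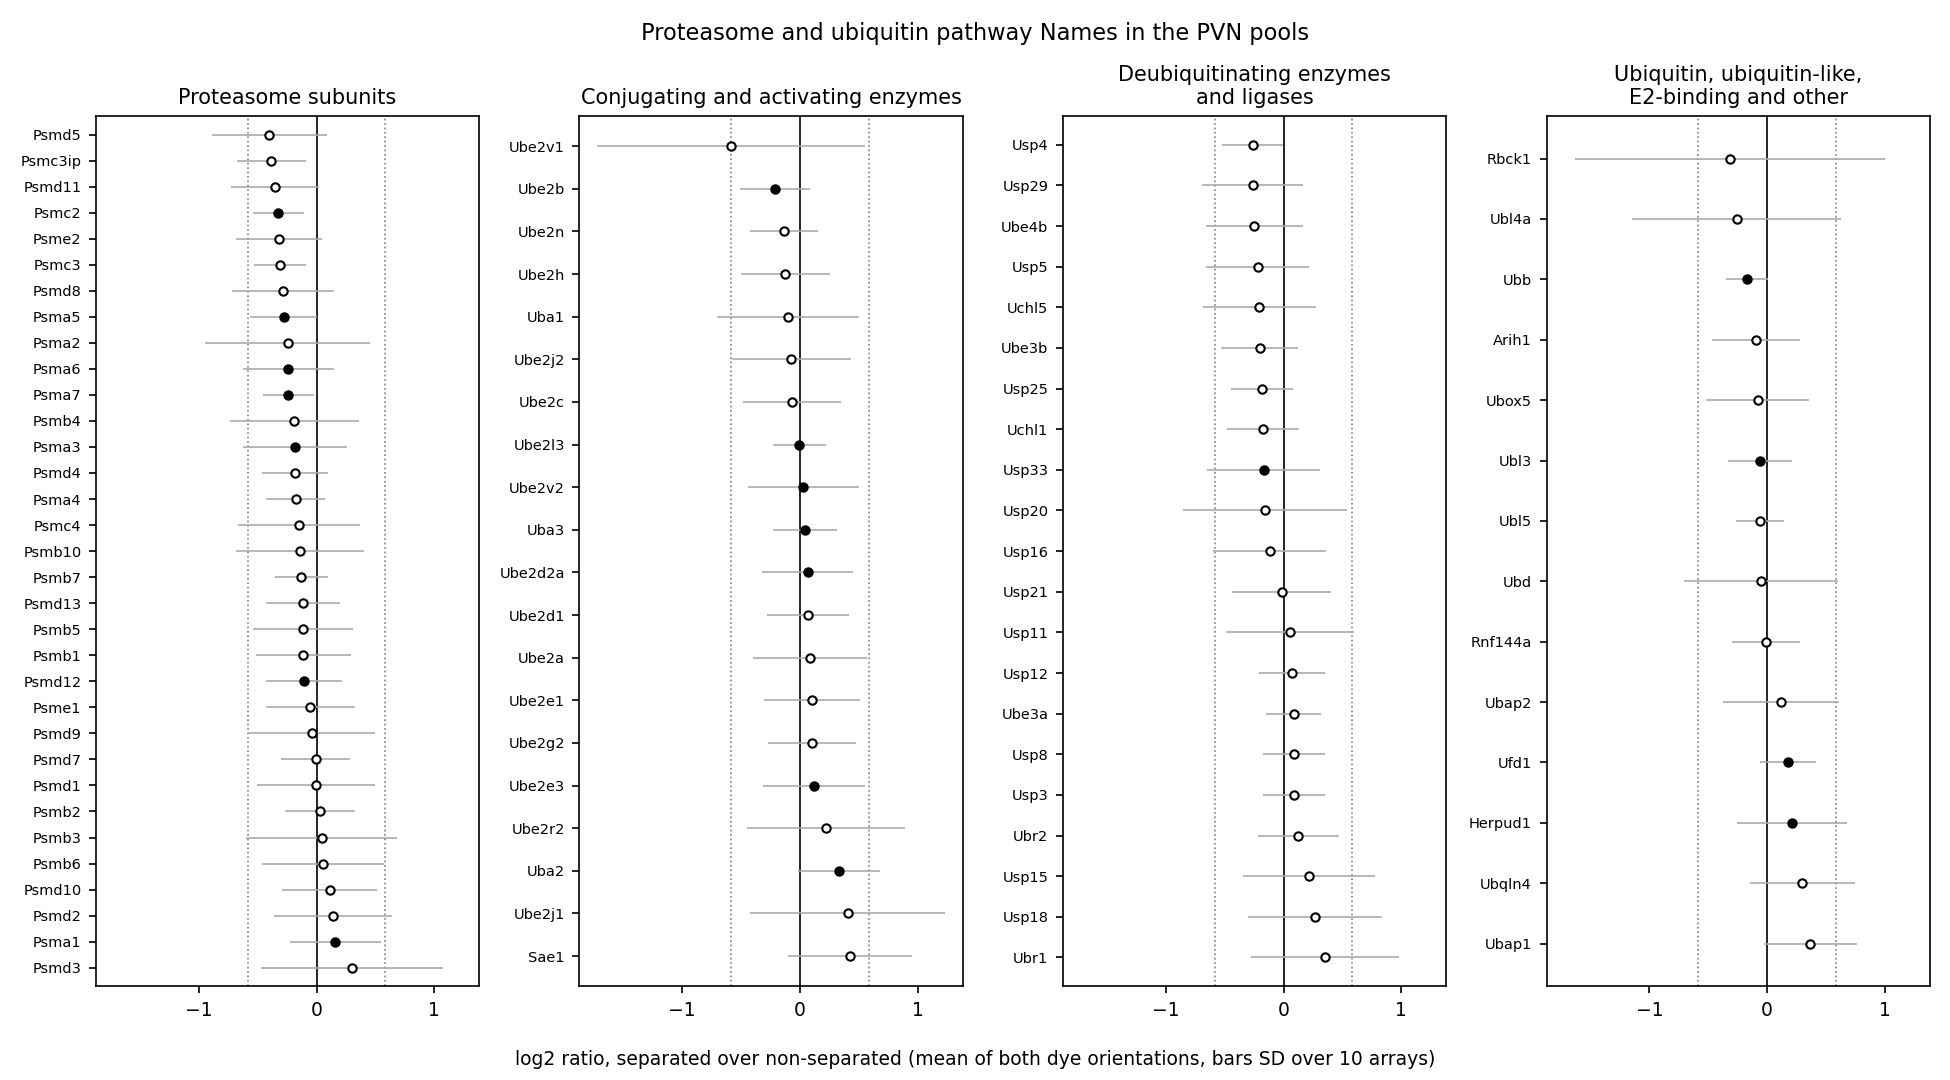
Log2 ratio of the separated over the non-separated pool for 88 of the 93 genes, in 4 panels by role and ordered by value, with bars for the SD over 10 arrays and dotted lines at 1.5-fold. Filled points are the 19 of these genes above the empty spots. Most of the 33 proteasome genes lie left of 0, while the conjugating enzymes lie on both sides.

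The proteasome genes lay mostly on the low side of 0 in the separated pool, by small amounts. Of 33 genes, 26 were below 0, with a median of -0.14, against 48.6% below 0 and a median of 0.01 over all names. The 60 members outside the proteasome had 33 below 0 and a median of -0.03. The median of the proteasome genes was below 0 on 8 of the 10 arrays, at -0.31, -0.16, -0.14, -0.18 and -0.29 on the Cy5 arrays and at -0.11, 0.07, 0.02, -0.20 and -0.24 on the Cy3 arrays. The Cy5 arrays all lay below 0, and 2 of the Cy3 arrays lay above it. The medians of the genes' means were -0.16 over the Cy5 arrays and -0.17 over the Cy3 arrays. Of the 33 genes, 26 were below 0 by their mean over the Cy5 arrays and 21 by that over the Cy3 arrays. In both orientations 16 were below 0 and 2 above 0, where 3374 of all 15190 names were below and 3189 above in both. With so many genes below 0 in each orientation, many fall below in both without agreement gene by gene, which was not tested. Of the 7 that passed the empty-spot rule, 6 were below 0, with a median of -0.24. Only 3 of the 7 were below 0 in both orientations, and 4 had orientation means of opposite sign. Their array medians ran from -0.48 to -0.10 on the Cy5 arrays and from -0.34 to 0.09 on the Cy3 arrays.

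Lower values were also found in gene groups outside the pathway. Ribosomal proteins, found by name, had 53 of 59 genes below 0 with a median of -0.22, and their array medians were below 0 on 10 of 10 arrays. Astrocyte markers had 9 of 9 below 0 with a median of -0.49, and 2 of them were called lower; their summed intensity was 18398 to 60187 in the separated and 14613 to 100248 in the non-separated pool. Of these 9 markers, 5 were above the empty spots, 5 were below 0 on every array and 6 were below 0 in both orientations. Of the 2 called lower, the gap junction gene Gjb6 was not above the empty spots. Within their array spread of 0 lay Slc1a3 (-0.02 ± 0.22), aquaporin 4 (-0.10 ± 0.60), glial fibrillary acidic protein (-0.20 ± 0.48) and Slc1a2 (-0.49 ± 0.88). Among other cell types, the median of 4 myelin genes was -0.06 and that of 5 microglial genes was 0.17. Of these, 3 myelin genes and no microglial gene were above the empty spots. The 2 blood genes differed. Hemoglobin beta was at 0.45 ± 0.16 and above 0 on 10 of 10 arrays. Hemoglobin alpha was at -0.05 ± 0.49 and was not above the empty spots. The myelin genes went both ways: myelin basic protein was at -0.43 ± 0.27 and below 0 on 10 of 10 arrays and proteolipid protein at -0.32 ± 0.26, while Mobp was at 0.20 ± 0.46 and cyclic nucleotide phosphodiesterase 1 at 0.25 ± 0.89. The part of cell composition in the proteasome values was not tested.

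**Figure D2:**
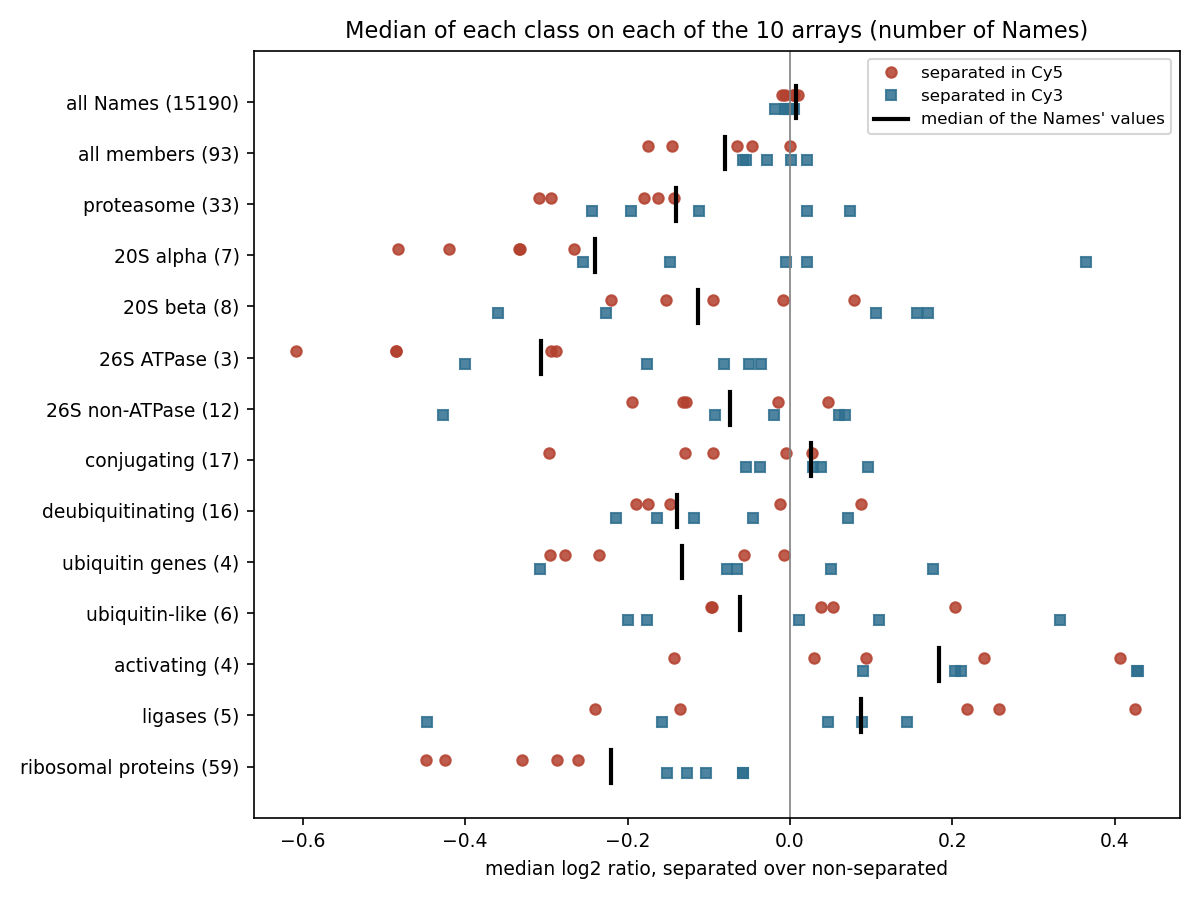
Median log2 ratio of each class of genes on each array, with circles for Cy5 arrays, squares for Cy3 arrays and a black line for the median of the genes' values. The medians of the 3 ATPases of the 26S proteasome and of the ribosomal proteins lie below 0 on 10 of 10 arrays. Single genes of these classes need not do so. The medians of the conjugating enzymes and ligases lie on both sides of 0.

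The ATPases unfold substrates at the base of the 19S cap, and the 3 that the rule found were all below 0, with a median of -0.31. Psmc3 was the 1 member with the same sign on every array. Its values were -0.31, -0.05, -0.29, -0.44 and -0.29 on the Cy5 arrays and -0.12, -0.66, -0.07, -0.66 and -0.18 on the Cy3 arrays, a mean of -0.31 ± 0.22. All 10 arrays read lower in the separated pool, and the orientation means of -0.28 and -0.34 were alike. The spot exceeded the 95th percentile of the empty spots on 4 of 10 arrays. A second spot of the gene, above that bar on as many arrays, split by orientation: it gave -0.19 ± 0.62, with means of 0.27 over the Cy5 arrays and -0.65 over the Cy3 arrays. With the spots of each gene averaged, no member kept one sign on all arrays.

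Psmc2, another ATPase of the ring, was above the empty spots on 10 of 10 arrays. It read -0.48, -0.61, -0.52, -0.50 and -0.27 on the Cy5 arrays and 0.00, -0.08, -0.04, -0.40 and -0.34 on the Cy3 arrays, a mean of -0.32 ± 0.22. The Cy5 arrays were all well below 0, and 3 of the Cy3 arrays lay close to it. Its second spot gave -0.42. Psmc4, the third ATPase that the rule found, was at -0.15 ± 0.52 with orientation means of -0.50 and 0.20. Psmc5, a further ATPase of the ring, is written as a protease in the files and so falls outside the rule. It was at -0.58 ± 0.48 with 8 of 10 arrays below 0 and orientation means of -0.89 and -0.26. Its spot was not above the empty spots.

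The alpha subunits form the outer rings and the gate of the 20S core, and they were the best measured proteasome class. Of 7 genes, 5 were above the empty spots and 6 were below 0, with a median of -0.24. Psma7 read -0.31, -0.09, -0.48, 0.00 and -0.68 on the Cy5 arrays and -0.03, -0.10, -0.15, -0.22 and -0.34 on the Cy3 arrays, a mean of -0.24 ± 0.22. No array of Psma7 lay clearly above 0. Psma5 read -0.33, -0.10, -0.17, -0.33 and -0.84 on the Cy5 arrays and 0.13, -0.17, 0.00, -0.55 and -0.42 on the Cy3 arrays, a mean of -0.28 ± 0.28 with 8 of 10 arrays below 0.

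The remaining alpha subunits above the empty spots differed between the orientations. Psma3 read -0.49, -0.27, -0.75, -0.64 and -0.71 on the Cy5 arrays and 0.03, 0.37, 0.20, 0.36 and 0.03 on the Cy3 arrays, so its mean of -0.19 ± 0.44 averages 2 sets of arrays that do not overlap. Psma6 was at -0.24 ± 0.39, with means of -0.51 over the Cy5 arrays and 0.03 over the Cy3 arrays. Psma1 was the only alpha subunit above 0, at 0.16 ± 0.39, with orientation means of -0.16 and 0.48 and a second spot at -0.18. Psma2 (-0.25 ± 0.70) and Psma4 (-0.18 ± 0.25) were not above the empty spots.

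The beta subunits form the inner rings, and Psmb5, Psmb6 and Psmb7 carry the cutting sites of the constitutive core. None of the 8 beta genes was above the empty spots, and their values were spread narrowly around a median of -0.11. They ran from -0.19 ± 0.55 for Psmb4 to 0.06 ± 0.52 for Psmb6, with 5 of 8 below 0. Of the catalytic genes, Psmb5 was at -0.11 ± 0.43 and Psmb7 at -0.13 ± 0.23, both within their array spread of 0. Psmb10, the catalytic subunit that replaces Psmb7 in the immunoproteasome, was at -0.14 ± 0.54. On the Cy3 arrays alone Psmb3 was called higher, at 0.60 ± 0.39, and no member was called lower, where 1.47% of all names were called higher and 1.36% lower. The mean of Psmb3 over the Cy5 arrays was -0.51.

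The non-ATPase subunits of the cap bind, deubiquitinate or position substrates. Of 12 genes, 9 were below 0, with a median of -0.07 and a range from -0.40 ± 0.49 for Psmd5, a chaperone of the ATPase ring, to 0.30 ± 0.77 for Psmd3. Psmd12, the only one above the empty spots, read -0.46, 0.26, 0.13, -0.18 and 0.33 on the Cy5 arrays and 0.04, -0.28, -0.51, 0.12 and -0.52 on the Cy3 arrays, a mean of -0.11 ± 0.32. Its arrays lay evenly on both sides of 0. Psmd4, a ubiquitin receptor of the cap, was printed in 3 spots, which gave values from -0.42 to -0.18. Psmd11 was at -0.35 ± 0.37 with 8 arrays below 0. Of the activators that cap the core in place of the 19S cap, Psme2 was at -0.32 ± 0.37 with 9 of 10 arrays below 0. Psme1 was at -0.05 ± 0.38, and neither activator was above the empty spots. Psmc3ip, which the files name as a partner of an ATPase subunit, was at -0.38 ± 0.29 on its brightest spot and 0.10 on the other. It is counted among the 33 proteasome genes by its name, which does not make it a subunit.

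Proteasome genes are known to be raised together by the transcription factor Nfe2l1, which binds antioxidant response elements, and their promoters were therefore searched for the core of that element, TGACNNNGC, on both strands. The promoters came from RefSeq (GRCm38.p6) and run from 250 bases before to 50 bases after the gene start. A promoter was found for 27 of the proteasome genes, and 4 held the motif, a share of 14.8% against 3781 of 27025 genes with a promoter (13.99%) in the table. The motif was about as common as in the promoters of all genes. The 4 matches are shown with their surroundings on the gene's own strand, with the motif in capitals; in Psmd12 it lies on the opposite strand.
Psmb5 (chr14:54618018-54618058, minus strand): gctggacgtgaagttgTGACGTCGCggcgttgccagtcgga
Psmb6 (chr11:70525332-70525372, plus strand): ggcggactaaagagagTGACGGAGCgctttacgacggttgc
Psmd12 (chr11:107479278-107479305, plus strand): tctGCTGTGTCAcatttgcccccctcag
Psmd9 (chr5:123228143-123228183, plus strand): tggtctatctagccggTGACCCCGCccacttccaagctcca
The motif starts 47, 9 and 31 bases before the gene start in Psmb5, Psmb6 and Psmd9, and 247 bases before it in Psmd12. The log2 ratios of these genes were -0.11 ± 0.43 for Psmb5, 0.06 ± 0.52 for Psmb6, -0.11 ± 0.32 for Psmd12 and -0.04 ± 0.54 for Psmd9, all within their array spread of 0.

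Ubb encodes a chain of ubiquitin repeats, a sequence that other ubiquitin genes share, so that its spot may bind their transcripts too. It read -0.21, -0.01, 0.17, -0.23 and 0.04 on the Cy5 arrays and -0.33, -0.39, -0.27, -0.29 and -0.19 on the Cy3 arrays, a mean of -0.17 ± 0.18 with 8 of 10 arrays below 0. The Cy3 arrays were all below 0 and the Cy5 arrays lay on both sides.

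**Figure D3:**
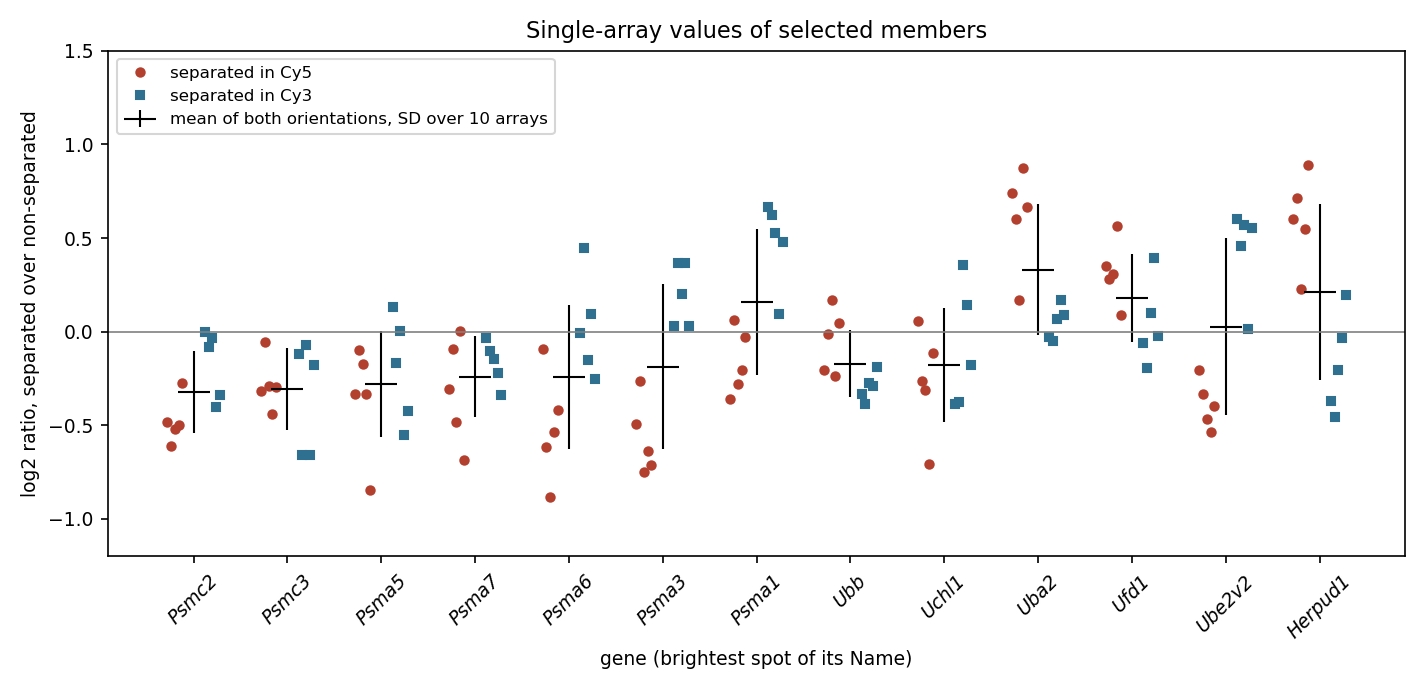
Log2 ratio of the separated over the non-separated pool on each array for 13 members, with circles for Cy5 arrays, squares for Cy3 arrays and crosses for the mean with the SD over 10 arrays. Psmc3 lies below 0 on every array, while Psma3, Ube2v2 and Herpud1 split by dye orientation.

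The activating enzymes, which start each pathway, lay mostly above 0. Of 4 genes, 3 were above 0, with a median of 0.18. The median was 0.04 over the 3 genes past the 90th percentile of the empty spots and 0.05 in the authors' deposited table. Uba2, the catalytic subunit of an activating enzyme for ubiquitin-like proteins, read 0.74, 0.60, 0.17, 0.88 and 0.67 on the Cy5 arrays and -0.03, -0.05, 0.07, 0.17 and 0.09 on the Cy3 arrays, a mean of 0.33 ± 0.35. It was high on the Cy5 arrays and near 0 on the Cy3 arrays, and a second spot that exceeded the empty spots on 9 arrays gave 0.03. Its partner Sae1 was at 0.42 ± 0.52 and did not pass the 90th percentile of the empty spots on enough arrays. Uba1, the main ubiquitin activating enzyme, was at -0.10 ± 0.60 with orientation means of -0.64 and 0.44. Uba3, which activates Nedd8, was at 0.04 ± 0.27.

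The 17 conjugating enzymes lay on both sides of 0. Of these, 8 were below 0, with a median of 0.03. Orientation means of opposite sign were found in 11 of the 17 (64.7%), against 56.8% of all names and 66.4% of names above the empty spots. Ube2v2, which pairs with Ube2n to build chains linked through lysine 63, read -0.20, -0.33, -0.47, -0.54 and -0.40 on the Cy5 arrays and 0.60, 0.46, 0.57, 0.01 and 0.55 on the Cy3 arrays, a mean of 0.03 ± 0.47. The 2 sets of arrays did not overlap. Ube2e3 (0.12 ± 0.43) had orientation means of -0.24 and 0.48, and Ube2d2a (0.06 ± 0.39) had -0.25 and 0.38. Ube2l3, the partner of RING-between-RING ligases such as parkin, was closest to 0 at -0.01 ± 0.22. Ube2b, which acts in postreplication repair, was the lowest of the 5 above the empty spots, at -0.21 ± 0.30 with 7 arrays below 0. That order holds for the brightest spots only: with all spots averaged, Ube2l3 was at -0.16, Ube2d2a at -0.13 and Ube2b at -0.07.

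The 16 deubiquitinating enzymes had 10 genes below 0 and a median of -0.14, which was -0.05 when all spots of a gene were averaged and -0.04 on the Cy3 arrays alone. They ranged from -0.26 ± 0.26 for Usp4 to 0.26 ± 0.57 for Usp18, and their median was below 0 on 8 of 10 arrays. Uchl1, one of the most abundant proteins of neurons, read 0.06, -0.26, -0.31, -0.71 and -0.11 on the Cy5 arrays and -0.39, -0.37, 0.36, 0.14 and -0.18 on the Cy3 arrays, a mean of -0.18 ± 0.30. Both orientations held arrays on either side of 0, and the 4 spots of Uchl1 ran from -0.18 to 0.22. Usp33, the only one above the empty spots, was at -0.17 ± 0.48 with orientation means of -0.54 and 0.20. Its second, dimmer spot gave 0.16. Uchl5, which works on the proteasome cap, was at -0.20 ± 0.48, and Usp5, which takes apart free ubiquitin chains, was at -0.22 ± 0.44. No test of the difference between proteasome genes, conjugating enzymes and deubiquitinating enzymes was possible with 1 pool per condition; side by side, their shares below 0 were 78.8%, 47.1% and 62.5%.

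The 5 genes classed as ligases by their names had a median of 0.09, with 2 below 0, and none was above the empty spots. The sign of that median depended on the orientation, at 0.12 on the Cy5 arrays and -0.11 on the Cy3 arrays, where 4 of the 5 were below 0. Ube3a, the ligase lost in Angelman syndrome in humans, was at 0.09 ± 0.23 with 7 of 10 arrays above 0. It was the member with the most spots, 6, and all of them were above 0, from 0.06 to 0.52, the highest on a dim spot with an SD of 0.85. Ubr1, which recognises unstable N termini, was at 0.35 ± 0.63 on its brightest spot, and its 3 spots ran from -0.21 to 0.35. The lowest ligase was Ube4b, a chain elongation factor, at -0.25 ± 0.41. The 4 proteins named for binding conjugating enzymes were all below 0, with a median of -0.09. Their range was from -0.31 ± 1.32 for Rbck1 to -0.01 ± 0.29 for Rnf144a. These 4 were kept apart from the 5 ligases by name only, and ligase activity of their own was not considered, so the ligase median does not cover all ligases among the members.

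Among the ubiquitin-like proteins, Herpud1, a component of degradation from the endoplasmic reticulum that is induced by stress there, was the highest above the empty spots. It read 0.60, 0.72, 0.23, 0.55 and 0.89 on the Cy5 arrays and -0.37, -0.45, -0.21, -0.03 and 0.20 on the Cy3 arrays, a mean of 0.21 ± 0.47. The orientations did not overlap and differed in sign, though its second spot was also above 0, at 0.37. Ufd1, which delivers ubiquitinated proteins with the unfoldase Vcp, read 0.35, 0.28, 0.31, 0.56 and 0.09 on the Cy5 arrays and -0.06, -0.20, 0.10, 0.39 and -0.02 on the Cy3 arrays, a mean of 0.18 ± 0.24. Of its 3 spots, the other bright one gave 0.05 and a dim one -0.30.

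**Figure D4:**
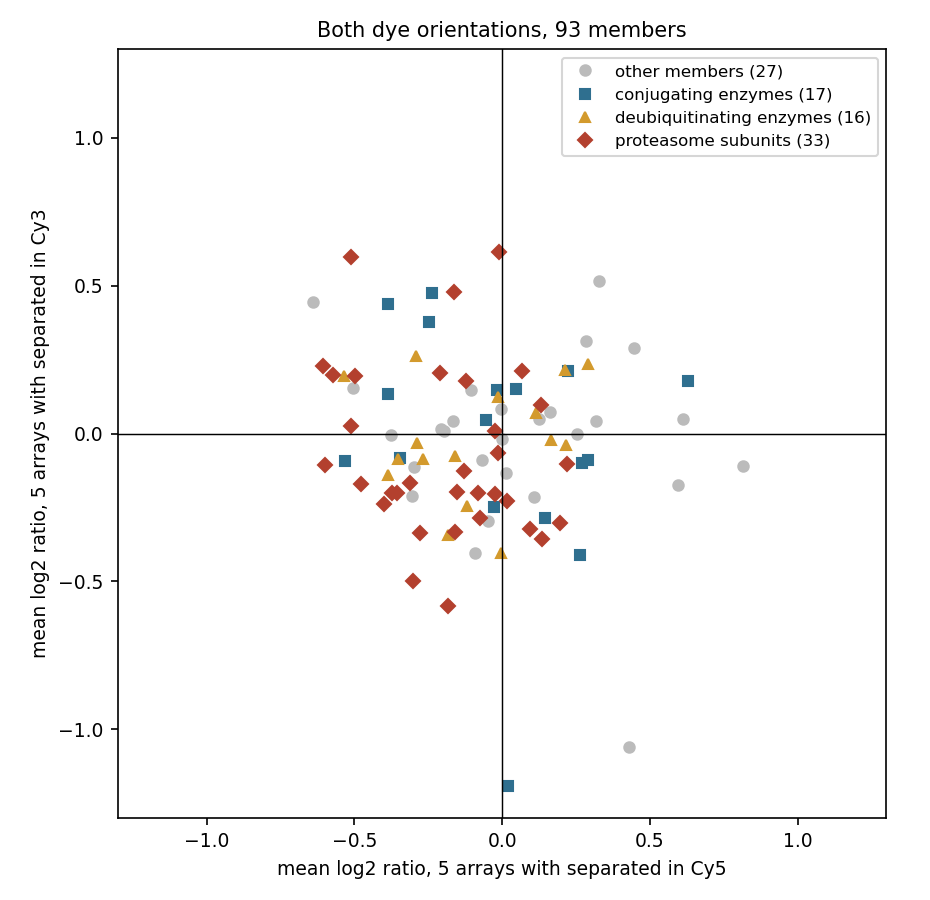
Mean log2 ratio of each of the 93 members over the 5 Cy5 arrays (x axis) and over the 5 Cy3 arrays (y axis). Of the 33 proteasome genes, 16 lie in the lower left quadrant, where both orientations are below 0, and 2 in the upper right. Of all 15190 names, 3374 were below 0 in both orientations and 3189 above in both.

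Many members differed in sign between the orientations. Of the 93 genes, 44 (47.3%) had orientation means of opposite sign, against 56.8% of all names, and the orientation means correlated at -0.12 across members and -0.16 across all names, where genes share arrays and are not independent. For the 22 genes above the empty spots the median was -0.31 to -0.13 on the Cy5 arrays and 0.02 to 0.05 on the Cy3 arrays. Taken alone, the Cy5 arrays called 3 members higher (Herpud1, Ubr1 and Uba2) and 3 lower (Psmd11, Psmb4 and Uba1), where 4.63% and 3.21% of all names were called. None of the 6 was called on all arrays. Spots of one gene differed too: among the 40 genes with more than 1 spot, the range over spots had a median of 0.20 and reached 0.83 for Usp3, and in 20 of them the spots lay on both sides of 0.

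The naming rule did not reach 92 further pathway names. These were cullins, F-box, RING finger and tripartite motif proteins, COP9 signalosome and anaphase promoting complex subunits, and a few single genes. None was called and none had the same sign on all arrays; their median was -0.04, with 53 below 0. The lowest after Psmc5 was Nedd8, the modifier that activates cullin ligases, at -0.47 ± 0.29 with 9 of 10 arrays below 0. Vcp, which pulls ubiquitinated proteins out of complexes, was at -0.22 ± 0.24. Cullin 3 was among the highest, at 0.29 ± 0.31, while the other 4 of the 5 cullins were below 0. The cullin median was -0.41 on the Cy5 arrays and 0.26 on the Cy3 arrays. By family, 15 of 18 RING finger proteins were below 0, with a median of -0.13. For COP9 subunits it was 1 of 7, with a median of 0.03, and for tripartite motif proteins 10 of 24, with a median of 0.04. Over all names 48.6% were below 0. These counts depended on the orientation. On the Cy5 and Cy3 arrays, 15 and 8 RING finger proteins were below 0, with medians of -0.29 and 0.02. For COP9 subunits the counts were 5 and 1, and for tripartite motif proteins 11 and 14. Only 3 of the 18 RING finger proteins were above the empty spots.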

How the data were processed

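The 10 array files hold linear spot intensity, quantified by the authors without background subtraction, per the file headers. The local background intensities given beside them entered the background correction of the main values. Other scanner columns were not used as measurements. A table of the authors' own log2 ratios, deposited for 19025 spots, served as an alternative; the sources used here do not give its normalization.

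Intensities were corrected with normexp (offset 50) and normalised within arrays by global loess with control spots (1170 empty and 192 of 4 control accessions) at weight 0 (limma 3.58.1, R 4.3.3), and turned to separated over non-separated. A gene was read from its brightest spot, and 2154 spots named only EST or ESTs were left out. The value and call were tried on simulated data, with array noise drawn below the observed SD over arrays and a fixed dye difference added. That trial checks the computation and cannot show how often the call errs on these arrays. With 1 pool per condition there was no test, and the number of arrays limits the precision. Values without background correction, with other normalizations, spots and filters, and without each array were compared.

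Members and lists were chosen with earlier results of these data known. The rule for named genes took called genes, genes of one sign on all arrays, the 3 highest and 3 lowest above the empty spots in each class by the words of the name, the ubiquitin genes, Uchl1 and genes with at least 2 spots above the empty spots. Other genes given, such as the ends of a range, were chosen after their values were seen. Roles follow function where the words of 7 names mislead. Proteins named for binding conjugating enzymes formed a class of their own, and ligases were taken by name. Symbols were not checked against clone sequences. Counts and medians include 5 members whose own values are not reported here.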

Additional observations from a re-analysis of the deposited data

Results flagged for a closer look

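Over 78 sets of 5 arrays (25 named genes and 14 class medians in each orientation), 6 held 1 array far from the other 4, where chance gives about 1 in 20. On the arrays where the separated pool carried Cy5, Uba3 read -0.46 on replicate 2 against 0.02 to 0.15 on the others, and Ube2e3 read 0.01 on replicate 2 against -0.36 to -0.26. On those where it carried Cy3, Ube2b read -0.68 on replicate 4 against -0.07 to 0.15, Ube2v2 read 0.01 on replicate 4 against 0.46 to 0.60, and Ube2l3 read 0.36 on replicate 2 against -0.09 to 0.04. The median of the 4 proteins that bind conjugating enzymes was -0.56 on replicate 1 of the Cy5 arrays, against 0.06 to 0.28 on the other 4 arrays.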

How the results depend on the processing

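No member was called under any alternative that kept both dye orientations. The 5 Cy5 arrays alone called 3 members higher and 3 lower, and the 5 Cy3 arrays called 1 higher and 0 lower; fewer arrays need to share a sign there. The median of the members ranged from -0.10 to -0.04 over 20 alternatives, and that of the proteasome genes from -0.24 to -0.13 over 21, including a filter at the 90th percentile of empty spots chosen after seeing the data. Leaving out each array in turn gave 0 calls, member medians from -0.10 to -0.06 and proteasome medians from -0.19 to -0.13. Members of one sign on all arrays and lower numbered 1, but 2 without background correction, with print-tip loess or with median centring, and 0 with all spots of a gene averaged. Leaving out Cy5 array 1, 3 or 4 or Cy3 array 1 or 2 also gave 2, since 1 array fewer must share the sign. The median of the deubiquitinating enzymes ranged from -0.17 to -0.04, and from -0.15 to -0.08 without each array; without Cy5 array 5 it was -0.08. That of the conjugating enzymes ranged from -0.04 to 0.06 and changed sign in 4 of 21 alternatives; median centring gave -0.04. Of the 25 named genes, 9 kept their sign in every alternative run for them. No paired analysis was possible because the result comes from no test; every value is already a ratio of both pools within an array, and the array numbers were not used to pair arrays across orientations. Few member spots rise above the brightest empty spots, which limits the dim members most.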
